A study of Mus musculus with 12 samples.

Results

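The genes described here are 35 lysosomal genes of the mouse, namely hydrolases of the lysosomal lumen, soluble cofactors, proteins of the lysosomal membrane and the transcription factors Tfeb and Tfe3. They were taken by name from a list that was chosen with earlier results of these data known. Shares of members set beside all genes are therefore descriptions and not a test of the list. By symbol, each of the 35 matched 1 of the 55401 genes in the table. All 35 passed the filter on low values and were tested, among 15026 genes. RNA-seq was available from MLL-AF9 leukemia cells of 3 kinds of female host, with 4 libraries each. MLL-AF9 is a fusion oncogene, which was transduced together with GFP into bone marrow progenitors and passed through many serial transplantations before these hosts received the cells. The hosts were young adult C57BL/6 mice (WT), Rag2-/- mice, which lack mature T and B cells but keep NK cells, and NSG mice, which lack T, B and NK cells. All hosts received the same aggressive leukemia line without irradiation, and GFP+ cells were sorted from the bone marrow of moribund mice. The leukemia is therefore 1 serially passaged line, so that the libraries stand for hosts and not for independent leukemias.

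Lysosomes digest proteins, glycans and lipids at acidic pH. Their hydrolases are made as precursors, carry a mannose-6-phosphate tag and are delivered by sorting receptors, and their membrane is lined with heavily glycosylated proteins such as LAMP1 and LAMP2. In myeloid cells lysosomes serve the killing and digestion of ingested material and the processing of antigens, and they are more abundant in macrophages than in most other cells. TFEB and TFE3, members of the MiT/TFE family, bind the E-box core CACGTG in promoters of many lysosomal genes.

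The 5 highest members by mean over the 12 libraries included a protease, a glycosidase, a soluble cofactor and a pair of membrane proteins. Values are given in TPM, the share of a library's transcripts after correction for the length of the gene, so that levels of different genes can be set side by side. Ctsz, encoding cathepsin Z, a carboxypeptidase, had a mean of 1014 TPM. It measured 1050.5, 1116, 1059 and 998 TPM in WT, 955, 965, 1002 and 957 TPM in Rag2-/- and 884, 996, 1163 and 1021 TPM in NSG, and the NSG range spanned those of the other hosts. Laptm5, encoding a lysosomal membrane protein of hematopoietic cells, measured 717, 695, 729 and 753 TPM in WT, 796, 842, 819 and 852 TPM in Rag2-/- and 843, 779, 675 and 697 TPM in NSG. The Rag2-/- values of Laptm5 lay above all WT values and overlapped those of NSG. Lamp1, a major structural protein of the lysosomal membrane, measured 704, 635, 680 and 702 TPM in WT, 691, 737, 829 and 797 TPM in Rag2-/- and 770, 781, 672 and 660 TPM in NSG, and its 3 ranges overlapped. Hexa and Psap followed, with means of 445 and 437 TPM. At the other end lay Lgmn, encoding the asparaginyl endopeptidase legumain, with a mean of 1.88 TPM, and Tfeb, with 7.77 TPM. The 35 members summed to 7121 to 7313 TPM in WT, 7174 to 7613 TPM in Rag2-/- and 6900 to 7092 TPM in NSG, which was 0.69% to 0.761% of all TPM. All NSG sums lay below all WT sums, and the WT and Rag2-/- ranges overlapped through Rag2-/- replicate 1.

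**Figure D1:**
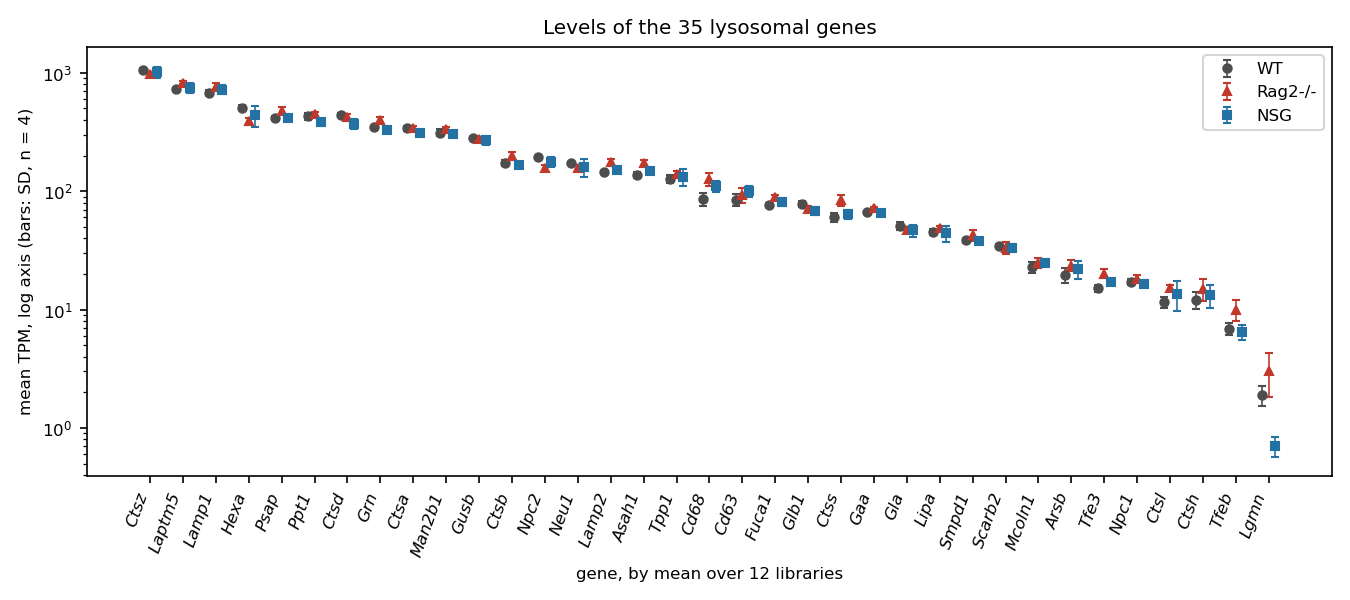
Mean TPM of each of the 35 lysosomal genes on a log axis, by host (circles WT, triangles Rag2-/-, squares NSG), with bars for the SD of 4 libraries. Levels run from 1014 TPM for Ctsz to 1.88 TPM for Lgmn, and the 3 hosts lie close together for most genes.

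Because Tfeb and Tfe3 are among the members, the promoters were searched for the E-box core. Sequences from RefSeq (GRCm38.p6), reaching from 250 bases before to 50 bases after the start site, matched 31 of the 35 members with 37 promoters; Ctsb, Ctsh, Asah1 and Npc1 were without an entry. CACGTG, which reads the same on both strands, was present in 9 of the 37 member promoters (24.3%) and in 7.15% of all 32851 promoters. The longer palindrome TCACGTGA, which contains CACGTG, was present in 4 member promoters (10.8%) and in 0.974% of all promoters, and the same palindrome with a G before and a C after it in 0 member promoters and in 0.326% of all. The 9 genes with CACGTG were Ctsa, Ctsd, Ctsl, Gaa, Gla, Glb1, Lamp1, Lgmn and Mcoln1. The 250 bases before the start site are shown for the 3 of them that differ in number and spacing of copies, and for Cd68 and Ctss, which have the largest differences between WT and Rag2-/- hosts below and hold no copy. Capitals mark CACGTG. The windows are chr8:13158911-13159160 (plus strand) for Lamp1, chr8:3500269-3500518 (plus strand) for Mcoln1, encoding a lysosomal calcium channel, chr7:142387828-142388077 (minus strand) for Ctsd, encoding the aspartic protease cathepsin D, chr11:69666171-69666420 (minus strand) for Cd68 and chr3:95526536-95526785 (plus strand) for Ctss.
Lamp1: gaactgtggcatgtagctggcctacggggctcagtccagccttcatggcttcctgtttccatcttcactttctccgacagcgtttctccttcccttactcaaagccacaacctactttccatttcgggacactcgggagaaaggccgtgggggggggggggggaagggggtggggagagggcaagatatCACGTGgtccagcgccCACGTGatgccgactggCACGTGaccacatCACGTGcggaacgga
Mcoln1: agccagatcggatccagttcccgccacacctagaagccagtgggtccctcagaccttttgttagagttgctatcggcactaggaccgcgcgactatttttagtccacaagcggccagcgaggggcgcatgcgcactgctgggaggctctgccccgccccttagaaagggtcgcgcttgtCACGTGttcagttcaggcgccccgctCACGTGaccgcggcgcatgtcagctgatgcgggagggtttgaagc
Ctsd: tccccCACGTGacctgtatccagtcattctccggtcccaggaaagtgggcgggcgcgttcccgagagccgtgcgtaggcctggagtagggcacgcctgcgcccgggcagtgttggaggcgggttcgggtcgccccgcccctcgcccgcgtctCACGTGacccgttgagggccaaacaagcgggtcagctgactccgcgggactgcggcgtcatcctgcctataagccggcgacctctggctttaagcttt
Cd68: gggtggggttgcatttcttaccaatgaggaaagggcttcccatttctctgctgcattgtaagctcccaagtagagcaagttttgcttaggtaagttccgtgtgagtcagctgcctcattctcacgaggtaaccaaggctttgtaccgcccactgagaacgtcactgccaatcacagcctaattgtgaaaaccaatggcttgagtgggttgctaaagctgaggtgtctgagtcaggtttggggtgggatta
Ctss: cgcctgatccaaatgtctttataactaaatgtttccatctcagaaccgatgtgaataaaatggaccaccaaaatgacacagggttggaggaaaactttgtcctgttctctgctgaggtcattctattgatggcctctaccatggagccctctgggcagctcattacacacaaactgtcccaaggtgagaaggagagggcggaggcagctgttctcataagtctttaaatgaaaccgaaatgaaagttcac
Lamp1 held 4 copies, the first bases of which lay 61, 45, 28 and 15 bases before the start site. Mcoln1 held 2 copies at 71 and 45 bases, and Ctsd held 2 copies at 245 and 98 bases before it. These matches describe the letters of the windows and do not show binding of a factor.

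The main comparison asked which lysosomal genes differed between leukemia cells grown in Rag2-/- and in WT hosts. In limma with Benjamini-Hochberg adjustment over all genes tested, 6 of the 35 members (17.1%) passed an adjusted p of 0.05, against 2.8% of all genes. Cd68, Ctss, Asah1, Lamp2 and Tfe3 were higher in Rag2-/-, which makes 5 members against 2.06% of all genes higher, and Npc2 was lower, which makes 1 member against 0.739% of all genes lower. The differences were small, between 1.21- and 1.47-fold. With a log2 fold change beyond 0.5 required as well, Cd68 alone was called, against 1.14% of all genes called higher, and 0 members were called lower, against 0.326%. The share over all genes depended on the filter for low values. With at least 1 TPM required in every library, 6 members passed the adjusted p, against 4.48% of all genes tested. A share among genes of similar level was not computed, so the part of high levels in the gap was not tested. Fold changes are on the scale of log2(TPM + 1) throughout.

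Cd68 encodes macrosialin, a LAMP-family glycoprotein of late endosomes and lysosomes in mononuclear phagocytes. It measured 91.6, 70.3, 90.7 and 90.6 TPM in WT, 115, 130, 146 and 113 TPM in Rag2-/- and 116, 122, 94.3 and 107 TPM in NSG. All 4 Rag2-/- and all 4 NSG values lay above all WT values, and WT replicate 2 was the lowest of the 12 libraries. The means were 85.8 ± 10.3, 126 ± 15.2 and 110 ± 11.8 TPM (SD, n = 4). The log2 fold change between Rag2-/- and WT was 0.55 (SE 0.11, limma, adjusted p = 0.024).

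Ctss encodes cathepsin S, the cysteine protease that trims the invariant chain of MHC class II. It measured 60.9, 53.1, 64.4 and 62.3 TPM in WT, 72.5, 88.2, 94.0 and 80.6 TPM in Rag2-/- and 63.2, 70.3, 57 and 66.5 TPM in NSG. Every Rag2-/- library was above the 8 others, with a log2 fold change of 0.47 against WT (SE 0.09, limma, adjusted p = 0.023). Asah1 encodes acid ceramidase, which cleaves ceramide. It measured 137, 126, 141 and 146 TPM in WT, 161, 173, 185 and 176 TPM in Rag2-/- and 156, 154, 151 and 137 TPM in NSG. Every Rag2-/- library was again above the 8 others, and the log2 fold change against WT was 0.34 (SE 0.06, limma, adjusted p = 0.0195).

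Lamp2, the partner of Lamp1 in the lysosomal membrane, which is also needed for chaperone-mediated autophagy, measured 149, 139, 143 and 147 TPM in WT, 163, 172, 192 and 177 TPM in Rag2-/- and 164, 147, 147 and 147 TPM in NSG. The Rag2-/- values were above all WT values, while NSG replicate 1 lay within the Rag2-/- range. The log2 fold change against WT was 0.28 (SE 0.06, limma, adjusted p = 0.0299). Npc2 encodes the soluble protein that hands cholesterol to the membrane protein NPC1. It measured 198, 199, 190 and 196 TPM in WT, 161, 158, 144 and 168 TPM in Rag2-/- and 158, 171, 189 and 192 TPM in NSG. All Rag2-/- values were below all WT values, and NSG covered the gap between them. The log2 fold change was -0.31 (SE 0.07, limma, adjusted p = 0.0322). Npc1 itself measured 15.9 to 18.2 TPM in WT and 16.8 to 19.5 TPM in Rag2-/-, with overlapping ranges.

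The transcription factors were both higher in every Rag2-/- library than in the 8 others. Tfe3 measured 14.2, 14.4, 15.2 and 16.5 TPM in WT, 18.9, 21.1, 22 and 18.4 TPM in Rag2-/- and 18.1, 18.0, 15.7 and 16.9 TPM in NSG, with a log2 fold change against WT of 0.39 (SE 0.08, limma, adjusted p = 0.0314). Tfeb measured 7.57, 5.70, 7.15 and 7.12 TPM in WT, 9.20, 9.14, 12.9 and 8.61 TPM in Rag2-/- and 6.25, 5.23, 7.38 and 6.96 TPM in NSG. Its log2 fold change was of similar size, 0.47, but varied more and did not pass the threshold (SE 0.15, limma, adjusted p = 0.0958). These are transcript levels, and the activity of both factors is known to be set largely by phosphorylation and entry into the nucleus, which RNA-seq does not measure.

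**Figure D2:**
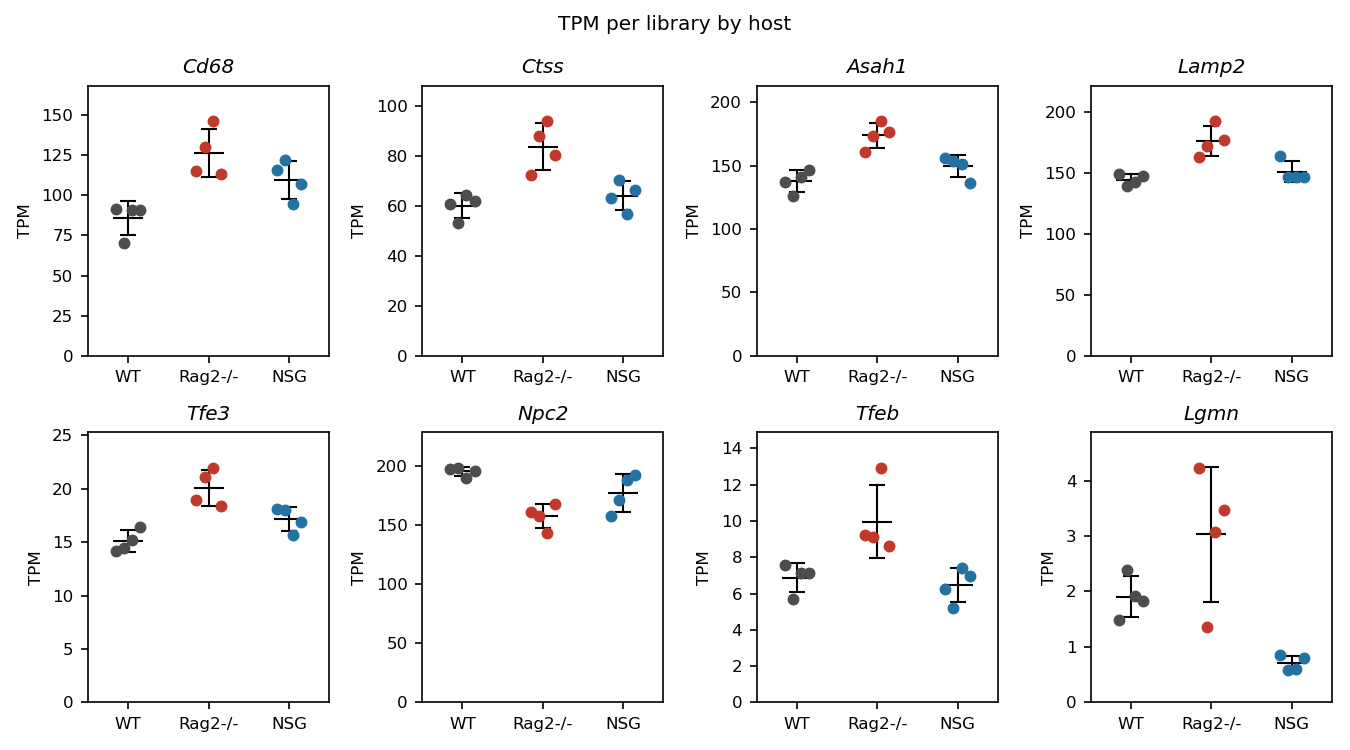
TPM in each library (points) by host for 8 lysosomal genes, with the mean and SD of 4 libraries in black and axes from 0. The Rag2-/- points lie above all WT points for Cd68, Ctss, Asah1, Lamp2, Tfe3 and Tfeb and below them for Npc2, while Lgmn in Rag2-/- spreads from 1.35 to 4.23 TPM.

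Members were also counted by whether the hosts overlapped, those past the adjusted threshold included. Between Rag2-/- and WT, 12 members had all 4 Rag2-/- values above all 4 WT values, against 10.2% of all genes, and 2 members, Hexa and Npc2, had them below, against 6.72% of all genes. Grn, encoding progranulin, a secreted and lysosomal growth regulator, measured 349, 335, 349 and 354 TPM in WT, 361, 424, 403 and 405 TPM in Rag2-/- and 346, 329, 314 and 330 TPM in NSG. Psap, encoding the precursor of the saposins that present sphingolipids to their hydrolases, measured 424, 411, 434 and 402 TPM in WT, 461, 461, 531 and 458 TPM in Rag2-/- and 400, 407, 424 and 436 TPM in NSG. Both were above the 8 others in every Rag2-/- library. Their log2 fold changes against WT were 0.20 (SE 0.05, adjusted p = 0.0647) for Grn and 0.19 (SE 0.06, adjusted p = 0.0824) for Psap in limma. Gaa, the acid alpha-glucosidase that breaks down glycogen, measured 66.2, 67.8, 67.9 and 66.7 TPM in WT, 70.2, 73.7, 73.7 and 69.4 TPM in Rag2-/- and 67.0, 66.7, 61.6 and 66.4 TPM in NSG. It also lay above the 8 others in every Rag2-/- library, but the difference was only 0.09 on the log2 scale (SE 0.05, limma, adjusted p = 0.268). In all, 7 members (Ctss, Asah1, Psap, Grn, Gaa, Tfe3 and Tfeb) had every Rag2-/- library above the 8 others, against 2.5% of all genes, and 0 members had every one below, against 0.799%.

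The glycosidases and the sulfatase were the role group with the lowest median log2 fold change against WT, -0.05. Hexa, encoding the alpha subunit of beta-hexosaminidase, measured 475, 535, 502 and 525 TPM in WT, 386, 414, 354 and 401 TPM in Rag2-/- and 506, 481, 314 and 446 TPM in NSG. The Rag2-/- values lay below all WT values, and NSG replicate 3 was the lowest of the 12 libraries. The log2 fold change against WT was -0.39 and did not pass the threshold (SE 0.12, limma, adjusted p = 0.0994). It did so when NSG replicate 3, which enters the shared estimate of the spread, was left out (adjusted p = 0.00913). Summed over the 9 glycosidase and sulfatase genes, the levels were 1560 to 1588 TPM in WT and 1417 to 1505 TPM in Rag2-/-, without overlap, and 1315 to 1540 TPM in NSG. The means of the sum differed by less than the means of Hexa alone, which were 509 ± 26.6 TPM in WT and 389 ± 25.6 TPM in Rag2-/- (SD, n = 4). By contrast, the 8 membrane genes summed to 1698 to 1847 TPM in WT and 1945 to 2144 TPM in Rag2-/-, also without overlap, and to 1754 to 2081 TPM in NSG. The 9 proteases overlapped, with 2168 to 2258 TPM in WT and 2113 to 2239 TPM in Rag2-/-.

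By role, the median log2 fold change between Rag2-/- and WT was 0.20 for the proteases, -0.05 for the glycosidases and sulfatase, 0.11 for the 4 lipid hydrolases, 0.19 for the 3 soluble cofactors, 0.14 for the membrane genes and 0.43 for the transcription factors. Over all 35 members it was 0.125, against 0.024 over all genes tested. The estimate was above 0 for 25 of the 35 members (71.4%), against 54.5% of all genes. The heat map of all members by library shows these directions gene by gene.

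**Figure D3:**
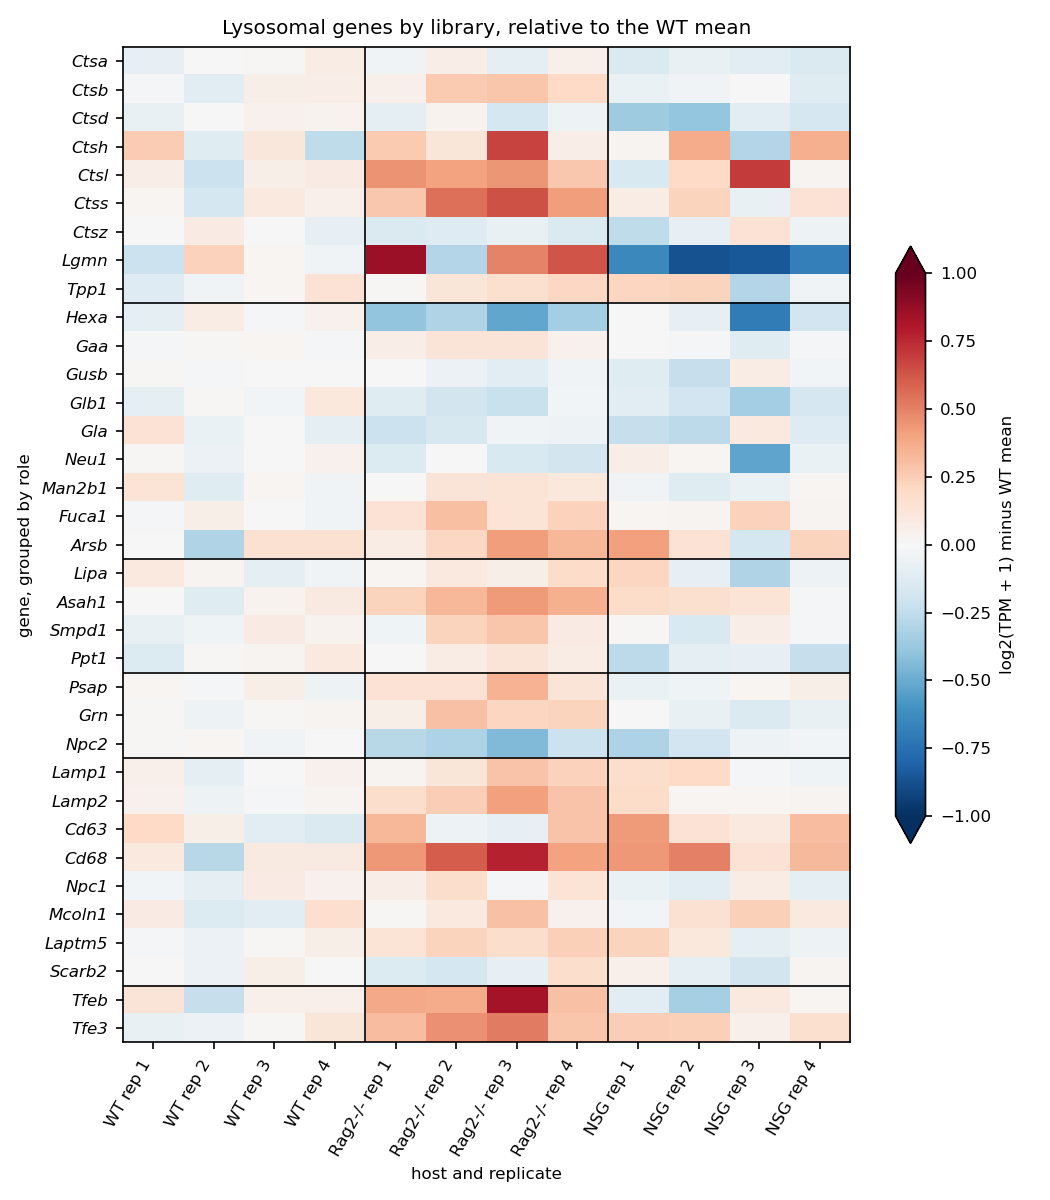
Each of the 35 lysosomal genes (rows, grouped by role: proteases, glycosidases and sulfatase, lipid hydrolases, soluble cofactors, membrane genes, transcription factors) in each of the 12 libraries (columns), as log2(TPM + 1) minus the WT mean, with colors cut at -1 and 1. Red rows in all 4 Rag2-/- columns include Cd68, Ctss, Asah1, Lamp2, Tfeb and Tfe3, and blue ones Hexa and Npc2.

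The number of members past the threshold rested on single libraries. Leaving out WT replicate 2, Rag2-/- replicate 2 or Rag2-/- replicate 3 left 0 of 35 members past an adjusted p of 0.05 in limma, and the share of all genes past it fell to 0.353%, 0.419% and 0.419%. Leaving out WT replicate 1 or 3 left 2 members, against 1.32% and 1.01% of all genes. Leaving out NSG replicate 3 raised the number to 10, and the share of all genes rose with it to 5.25%. The estimates moved less. Over the 12 fits that each left out 1 library, the log2 fold change lay between 0.46 and 0.60 for Cd68, between 0.41 and 0.54 for Ctss, between 0.29 and 0.37 for Asah1 and between -0.34 and -0.27 for Npc2.

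Genes used as markers of other cell types, some of which the leukemia cells may express, also differed in the Rag2-/- libraries. Of 13 neutrophil genes, 10 were higher in Rag2-/- than in WT at an adjusted p of 0.05 in limma, against 2.06% of all genes. Among them were S100a8, S100a9, Ngp and Mmp9. Ly6g, Csf3r and Chil3 overlapped between these hosts, with log2 fold changes of 0.69, -0.05 and 1.46 (limma, adjusted p = 0.327, 0.872 and 0.0957). Of 5 genes of the primary granules, which are made earlier in granulocyte development, 3 were lower in Rag2-/- than in WT and 0 higher, with log2 fold changes of -2.13 for Mpo, -0.65 for Prss57 and -0.39 for Prtn3 (limma, adjusted p = 0.0189, 0.0154 and 0.0363). Elane and Ctsg, the highest of the 5, overlapped between these hosts, with log2 fold changes of -0.15 and 0.01. The 5 genes summed to 17250 to 21223 TPM in Rag2-/- and 20198 to 21502 TPM in WT, with overlap. Chil3 made up most of the sum of the 13 neutrophil genes and was left out after its values were seen. The other 12 summed to 2363, 2160, 2225 and 913 TPM in the 4 Rag2-/- libraries, against 445 to 577 TPM in WT and 475 to 596 TPM in NSG. Rag2-/- replicate 4 thus had the lowest neutrophil sum of its host, still above every WT library. Its values for Cd68 (113 TPM) and Tfe3 (18.4 TPM) were also the lowest of the 4 Rag2-/- libraries, whereas Rag2-/- replicate 1 was the lowest for Ctss, Asah1 and Lamp2. Chil3 itself measured 1636 TPM in replicate 4, within the WT range of 1214 to 2840 TPM, and 6401 to 8732 TPM in the other Rag2-/- libraries. Without replicate 4, 5 of the 6 members stayed past the threshold, against 2.62% of all genes, and Lamp2 had an adjusted p of 0.0513 in limma. That fit keeps the Rag2-/- libraries with the higher neutrophil sums, so it cannot show whether those transcripts play a part. The sum of 15 macrophage genes was 150 to 171 TPM in Rag2-/-, 129 to 146 TPM in WT and 99.8 to 152 TPM in NSG. Of these, Adgre1, encoding the macrophage antigen F4/80, did not follow (means of 55.0 TPM in Rag2-/- and 57.4 TPM in WT), and 3 of the 15 were under 1 TPM in every library. Vcam1, Cd163, Mrc1, Cd5l and Slc40a1 also overlapped between Rag2-/- and WT, while Axl was higher in Rag2-/- without overlap. The complement genes C1qa, C1qb and C1qc, products of tissue macrophages, summed to 12.8 to 28.4 TPM in Rag2-/-, 1.44 to 9.22 TPM in WT and 2.62 to 5.0 TPM in NSG, without overlap between Rag2-/- and the 8 others. Of the macrophage genes, 10 were tested, and C1qc alone passed an adjusted p of 0.05 in limma, higher in Rag2-/- than in WT. Whether the neutrophil or macrophage transcripts take part in the levels of Cd68, Ctss or the other members was not tested. In bulk RNA, more cells of a type, more RNA per cell and transcripts of the leukemia cells themselves cannot be told apart. The sum of 7 monocyte markers was 1525 to 1880 TPM in Rag2-/-, 2009 to 2128 TPM in WT and 1438 to 1939 TPM in NSG, so that it was below WT in both other hosts, and 1 of the 7 passed, lower in Rag2-/- than in WT. Estimated depth also differed. About 16000000 to 27100000 reads were counted in WT, 17400000 to 42800000 in Rag2-/- and 19000000 to 33100000 in NSG, and its part in these differences was not tested.

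**Figure D4:**
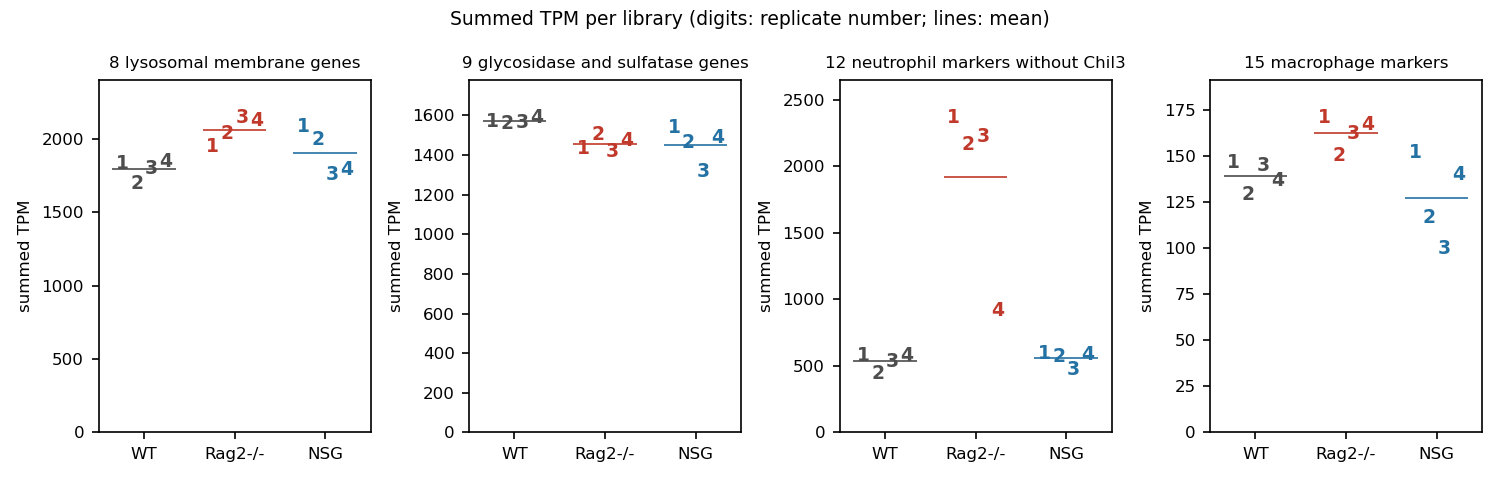
Summed TPM in each library for 8 lysosomal membrane genes, 9 glycosidase and sulfatase genes, 12 neutrophil markers without Chil3 and 15 macrophage markers, with digits for the replicate number, lines for the host mean and axes from 0. The neutrophil markers are highest in Rag2-/- replicates 1 to 3 (2363, 2160 and 2225 TPM), and Rag2-/- replicate 4 (913 TPM) lies between them and WT. Replicate 4 has the second-highest sum of lysosomal membrane genes among the Rag2-/- libraries. A link between these sums was not tested.

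The second comparison set Rag2-/- against NSG hosts, which differ in NK cells and also in strain, so that effects of either cannot be told apart. Cells came from moribund mice, and the study reports slower AML in Rag2-/- and earlier onset in NSG than in WT hosts. Time in the host may thus differ as well, and it cannot be told apart from the host in any of the comparisons. It uses the same Rag2-/- libraries as the comparison with WT, so that the results of both are not independent and are given side by side. In limma, 0 of 35 members passed an adjusted p of 0.05, against 0.26% of all genes, or the call with a fold limit, against 0.213%. At an unadjusted p of 0.05 there were 16 members, against 12.6% of all genes. A voom fit on estimated reads called 1, Lgmn, where 0.62% of all genes passed the adjusted p. The estimates were above 0 for 29 of 35 members, against 53.4% of all genes, and their median was 0.143, against 0.013 over all genes. The Rag2-/- values lay above all NSG values for 10 members, against 4.34% of all genes, and below them for 0, against 2.25%. These 10 were Ctss, Asah1, Psap, Grn, Gaa, Tfe3, Tfeb, Ctsb, Ppt1 and Lgmn.

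Grn had the lowest adjusted p, with a log2 fold change of 0.27 (SE 0.05, limma, adjusted p = 0.0603), next to 0.20 against WT. For Ctss the log2 fold change was 0.38 against NSG (limma, adjusted p = 0.108) and 0.47 against WT, and for Tfeb it was 0.55 against NSG (limma, adjusted p = 0.136) and 0.47 against WT. For Cd68 the log2 fold change was 0.20 against NSG (95% interval -0.04 to 0.44, limma, adjusted p = 0.489) and 0.55 against WT. Ctsb, encoding cathepsin B, measured 180, 208, 210 and 200 TPM in Rag2-/- and 165, 169, 173 and 160 TPM in NSG, with a log2 fold change of 0.26 (limma, adjusted p = 0.0976). Ppt1, encoding the thioesterase that removes palmitate from proteins, measured 429, 450, 466 and 449 TPM in Rag2-/- and 357, 399, 405 and 364 TPM in NSG, with a log2 fold change of 0.23 (limma, adjusted p = 0.129). Exons of Ppt1 overlap those of Cap1 over 3.51% of the Ppt1 exon bases, and exons of Ctsb overlap those of Fdft1 over 12.8%. Reads of such overlaps may be counted for either gene. Other members share exon bases as well, such as Glb1 with Tmppe (5.49%).

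Lgmn had the largest estimate, with low counts behind it. It measured 1.48, 2.39, 1.93 and 1.82 TPM in WT, 4.23, 1.35, 3.08 and 3.47 TPM in Rag2-/- and 0.852, 0.577, 0.608 and 0.798 TPM in NSG. All NSG libraries were below all others, and Rag2-/- replicate 2 was below every WT library while the other Rag2-/- libraries were above them. The NSG values rested on an estimated 8 to 18 reads, and on fewer fragments if both reads of a pair were counted. The log2 fold change between Rag2-/- and NSG was 1.18 (SE 0.24, limma, adjusted p = 0.0642), and without Rag2-/- replicate 2 it was 1.42 (adjusted p = 0.0338). At this low level the size depended on the scale, with 1.86 at a pseudocount of 0.1 and 1.99 in voom.

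**Figure D5:**
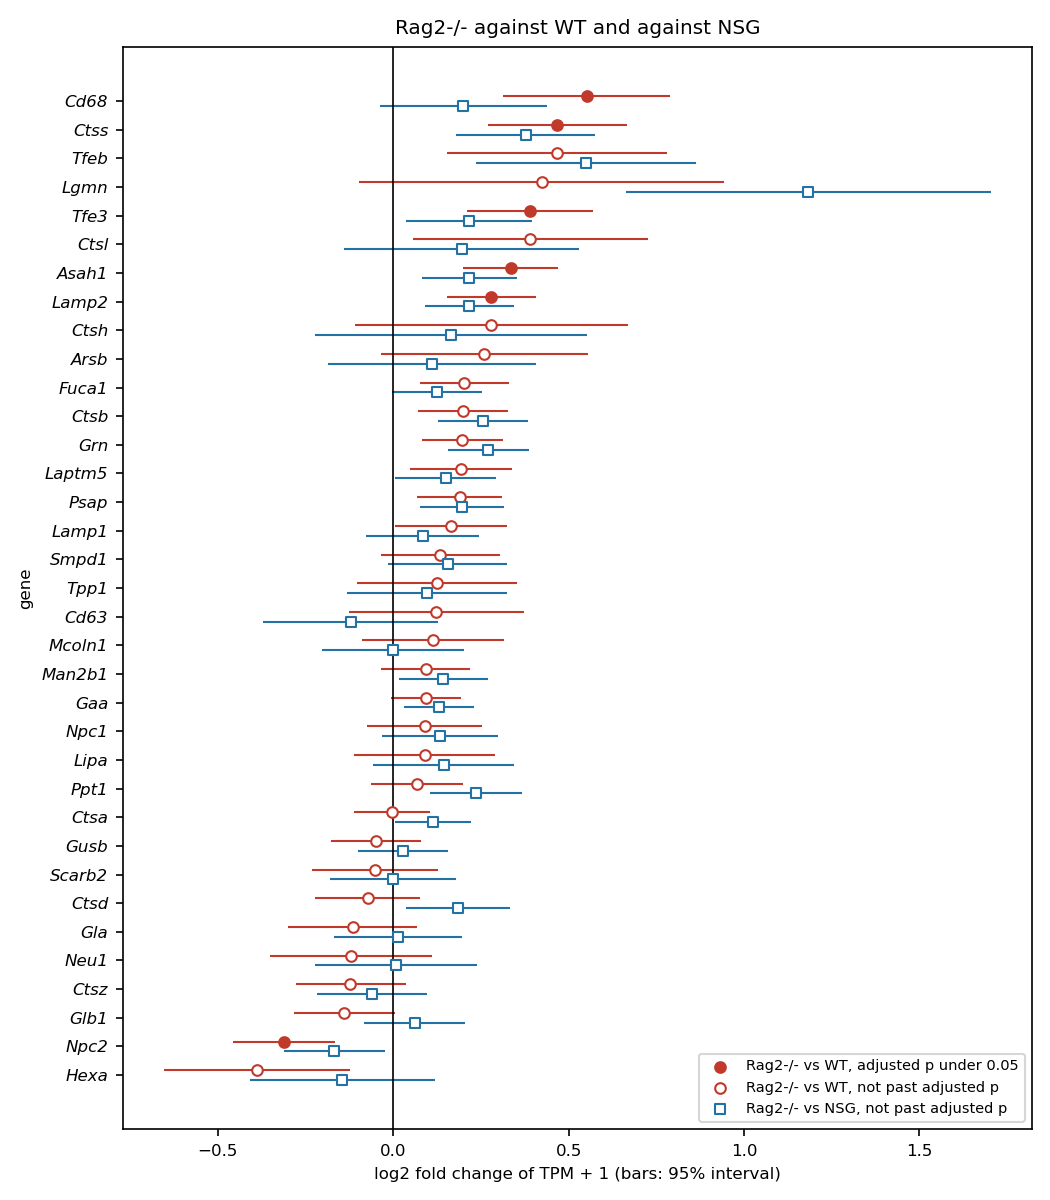
Log2 fold change of TPM + 1 with its 95% interval for the 35 lysosomal genes, for Rag2-/- against WT (circles) and Rag2-/- against NSG (squares), sorted by the former, with filled symbols for an adjusted p under 0.05. Filled symbols occur for 6 genes against WT and for 0 against NSG, and both sets of estimates include the same 4 Rag2-/- libraries.

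The third comparison, NSG against WT hosts, gave 0 members past an adjusted p of 0.05 in limma, against 0.0% of all genes. These hosts differ in strain as well as in T, B and NK cells. At an unadjusted p of 0.05 there were 6 members, against 9.16% of all genes, and voom on estimated reads called 0. The median of the estimates was -0.04, and 14 of 35 were above 0, against 51.5% of all genes. Cd68 was higher without overlap, against 2.21% of all genes, with a log2 fold change of 0.35 (SE 0.11, limma, adjusted p = 0.422). Ctsd, Glb1 (encoding the lysosomal beta-galactosidase) and Lgmn were lower without overlap, against 2.38% of all genes. Their log2 fold changes were -0.26, -0.20 and -0.76, with adjusted p of 0.342, 0.429 and 0.422 in limma. That of Lgmn was -1.31 at a pseudocount of 0.1 and -1.37 in voom. Ctsd measured 420 to 455 TPM in WT and 337 to 408 TPM in NSG, with 391 to 454 TPM in Rag2-/-. Leaving out WT replicate 1 or NSG replicate 3 raised the number of members without overlap from 4 to 7, while the share of all genes without overlap in either direction rose from 4.59% to 8.3% and 8.61%.

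The members varied little within a host. The median coefficient of variation was 5.73% in WT, 6.49% in Rag2-/- and 8.81% in NSG, next to 6.81%, 7.4% and 10.5% over the 9437 genes whose mean reached 10 TPM. NSG replicate 3 was the lowest or highest of its host for 28 of 35 members, and NSG replicate 4 for 6. Rag2-/- replicate 3 was at either end for 26 members and was the highest for 17 of them.

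The wider lysosomal machinery was read from lists of genes that are not among the 35 members. Of 146 tested genes in lists of further hydrolases and membrane proteins, the proton pump, sorting, mTORC1 and MiT/TFE control, autophagy and the cystatins, 6 were higher and 2 lower at an adjusted p of 0.05 in limma, against 2.06% and 0.739% of all genes, and 3 of the 6 were stefins. Of 35 further hydrolases and 17 subunits of the V-ATPase, the pump that acidifies the lysosome, 0 passed; their medians were 0.05 and 0.03 on the log2 scale. Igf2r, encoding the mannose-6-phosphate receptor that carries hydrolases to the lysosome, measured 38.8, 44.5, 42.1 and 49.2 TPM in WT, 16.7, 15.7, 21.6 and 23.5 TPM in Rag2-/- and 30.4, 31.6, 20.2 and 32.5 TPM in NSG. All Rag2-/- values were below all WT values, with a log2 fold change of -1.15 (SE 0.16, limma, adjusted p = 0.00644), which was larger than that of any of the 35 members, and it stayed past the threshold in every alternative fit. Wipi1, which binds phosphoinositides on forming autophagosomes, measured 41.8, 40.8, 46.9 and 45.0 TPM in WT, 62.2, 66.9, 70.4 and 63.1 TPM in Rag2-/- and 46.1, 48.1, 66.4 and 50.3 TPM in NSG. It was higher in Rag2-/- than in WT by 0.58 on the log2 scale (SE 0.10, limma, adjusted p = 0.0154). Slc11a1, encoding NRAMP1, a metal transporter of the phagosome, measured 4.07 to 6.97 TPM in WT and 8.28 to 14.9 TPM in Rag2-/-, with a log2 fold change of 0.81 (limma, adjusted p = 0.0436), and it no longer passed in 13 of 21 alternative fits (adjusted p up to 0.132). Outside the rule for named genes, Snx1 (0.25, adjusted p = 0.04) and Lamtor2 (-0.30, adjusted p = 0.0461) in limma were picked after their values were seen, to complete the count, and each no longer passed in 12 of 21 alternative fits. The stefins, cytosolic inhibitors of cysteine cathepsins such as cathepsin S, differed most, with log2 fold changes of 2.18 for Stfa1, 3.01 for BC100530 and 4.09 for Stfa2l1 (limma, adjusted p = 0.00644, 0.00525 and 0.00525). Stfa1 measured 621, 1053, 1079 and 441 TPM in Rag2-/- and 102 to 263 TPM in WT, and its lowest Rag2-/- value was in replicate 4, as was the neutrophil sum. These stefins are near-identical copies between which the counting may split reads. In Rag2-/- against NSG and in NSG against WT, 0 of the 146 genes passed in limma.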

How the data were processed

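RNA-seq was made from poly-A mRNA of GFP+ MLL-AF9 cells sorted from bone marrow (12 libraries, 4 per host). According to the study's methods, the authors aligned paired-end reads to mm10 with HISAT2 on Galaxy and deposited TPM per gene; the counting tool and gene lengths are not given in the sources used here. Symbols and coordinates are from GENCODE (GRCm38). Values were analysed as log2(TPM + 1) for the 15026 genes whose mean over the libraries reached 1 TPM, in 1 fit over all 12 libraries with limma 3.58.1 (R 4.3.3, empirical Bayes with trend), with Benjamini-Hochberg adjustment over all genes. A gene was called at an adjusted p under 0.05 with a log2 fold change beyond 0.5; the adjusted p alone was a second rule. Depth was estimated from the steps of low TPM values, which gave whole reads within 0.05 for 98.7% to 99.0% of genes under 20 reads. Of these whole counts, 65.5% to 68.7% were even, and whether both reads of a pair were counted was not tested. On this scale 3 reads on 1 kb were 0.249 to 0.647 TPM. Members given in every library were those past the adjusted p, those with all Rag2-/- values beyond the 8 others, the 5 highest and the transcription factors; pathway genes were named when called. The members and lists were chosen with earlier results of these data known. Labels number the libraries of a host as biological replicates, and the study gives n = 4 per group. Neither says in words that each library came from a separate mouse, so p-values measure the spread between libraries. Libraries of 1 number did not deviate together (12 pairs, correlations -0.0906 to 0.0318), so numbers were not used as pairs. Alternatives were another pseudocount, other filters, scalings, no trend, 8 libraries per comparison, a replicate block, each library left out and, added after the data were seen, voom on estimated reads and counts of overlap and list genes under the same settings.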

Additional observations from a re-analysis of the deposited data

Results flagged for a closer look

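Within a host of 4 libraries, 8 of 117 groups of values (each member, the sum of all members and the sums of the neutrophil, macrophage and monocyte markers, in each host) held a library whose gap to the next exceeded Dixon's critical value, where chance alone gives about 5.85. Ctsl was low in WT replicate 2, at 9.74 TPM against 12 to 12.2 TPM (ratio of the gap to the range 0.918). Cd68 was low in the same library, at 70.3 TPM against 90.6 to 91.6 TPM (0.957). Psap was high in Rag2-/- replicate 3, at 531 TPM against 458 to 461 TPM (0.954), and so was Tfeb, at 12.9 TPM against 8.61 to 9.20 TPM (0.863). The sum of all 35 members was low in Rag2-/- replicate 1, at 7174 TPM against 7569 to 7613 TPM (0.9). In NSG, Lamp2 was high in replicate 1, at 164 TPM against 147 TPM in each other library (0.976). In NSG replicate 3, Fuca1, encoding the alpha-fucosidase, was high, at 89.9 TPM against 78.0 to 78.3 TPM (0.969), and Gaa was low, at 61.6 TPM against 66.4 to 67.0 TPM (0.878).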

How the results depend on the processing

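Of 878 recomputed values for 42 gene results, 784 kept their direction and their side of the threshold, 82 kept the direction but no longer passed, 12 newly passed and 0 reversed. Members called between Rag2-/- and WT numbered 1 and became 0 with all genes above 0 tested; those past the adjusted p alone numbered 6 and became 2 with all genes above 0 (0.654% of all genes) and 10 with the 8 libraries alone (6.62% of all genes). With the replicate block both counts became 0, while 1.61% of all genes passed the adjusted p. The adjusted p of the 6 members in limma then lay between 0.05 and 0.0739. Leaving out 1 library gave 0 to 2 members called and 0 to 10 past the adjusted p, with 0.353% to 5.25% of all genes past it. The median member log2 fold change, 0.125, was 0.12 to 0.169 with 1 library left out and 0.103 to 0.126 in the other fits. Pathway genes past the adjusted p numbered 8, and became 5 with all genes above 0, 5 with no trend, 17 with the 8 libraries alone and 4 to 14 with 1 library left out. Between Rag2-/- and NSG, members called and past the adjusted p numbered 0. They became 1 with voom, where 0.62% of all genes passed the adjusted p. With 1 library left out they became 0 to 1, where 0.0266% to 0.859% of all genes passed it. Pathway genes became 2 with voom and 0 to 4 with 1 library left out. The median, 0.143, became 0.104 with voom and 0.117 to 0.167 with 1 library left out. Members without overlap between NSG and WT numbered 4, and 5 to 7 with 1 library left out, where the share of all genes rose from 4.59% to between 6.54% and 10.3%. The cause of these changes was not tested. Members called or past the adjusted p between NSG and WT were 0 in every fit. For Lgmn in NSG, an estimated 8 to 18 reads limit the precision.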
